A study of Homo sapiens with 36 samples.

Results

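The genes described here encode the proteins of the cytosolic ribosome. They were taken as the listed genes whose symbol follows the ribosomal protein naming pattern (RPL or RPS with a number, RPLP0, RPLP1, RPLP2 or RPSA) and that are annotated as protein-coding. The rule found 77 of 15891 listed genes, 46 for the large 60S subunit and 31 for the small 40S subunit. All samples were HCT116, an established line of human colon cancer cells. They received the antimetabolite 5-fluorouracil (5-FU), which disturbs both DNA precursor supply and RNA, at 10 µM for 48 h. Cells were taken at D0 (no drug yet), at D1 and D2 (within the exposure), and at D7, D14 and D16. From each, cytoplasmic RNA was sequenced beside a heavy pool, the gradient fractions with mRNAs on more than 3 ribosomes. Each of the 12 groups had 3 libraries, lettered A, B and C as batches in the labels. No later untreated culture was among the samples, so drug and time in culture cannot be told apart, and what was done between D14 and D16 was not given.

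Each ribosome needs a single copy of nearly every one of these proteins, and the P1 and P2 stalk proteins in more copies, so cells make them in matched amounts. Their mRNAs are abundant and short. Most begin with a C followed by a run of pyrimidines, the 5′ terminal oligopyrimidine (TOP) motif, through which the kinase mTORC1 and the cap-binding protein LARP1 set how far they are loaded with ribosomes. TOP mRNAs are known for moving between an untranslated pool and polysomes as growth conditions change. An open reading frame holds only as many ribosomes as fit along it, so a very short one can be translated outside a heavy pool.

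Start sites were read from the RefSeq table of GRCh38.p14, which held 62 of the 77 genes with 77 starts. Of the 62 genes, 46 (74.2%) had a start at a C followed by at least 4 pyrimidines (C or T, read on the gene's strand only), against 5.14% of all 27305 genes in that table. A pyrimidine run of 7 or more bases that touched positions -5 to +10 was present in 54 of the 62 (87.1%), against 21.4% of all genes. The 9 starts below belong to genes with the largest changes in the sections that follow, and to RPLP0 and RPS6 as a stalk and a signalling member for comparison. Each runs from 10 bases before the start to 20 bases from it, so the start is the 11th base. Capitals mark the longest pyrimidine run that touches -5 to +10.
RPL12: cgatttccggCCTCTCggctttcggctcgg
RPS12: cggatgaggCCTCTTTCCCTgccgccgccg
RPL41: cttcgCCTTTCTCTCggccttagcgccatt
RPL39: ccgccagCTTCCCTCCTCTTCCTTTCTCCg
RPS19: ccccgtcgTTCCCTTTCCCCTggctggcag
RPLP0: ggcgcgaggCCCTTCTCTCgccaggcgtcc
RPS6: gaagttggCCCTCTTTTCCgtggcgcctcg
RPL3: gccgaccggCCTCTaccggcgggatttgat
RPL10A: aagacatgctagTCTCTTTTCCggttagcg
The windows lie at chr9:127451387-127451416 (RPL12, minus strand), chr6:132814559-132814588 (RPS12, plus), chr12:56116623-56116652 (RPL41, plus), chrX:119791611-119791640 (RPL39, minus), chr19:41860245-41860274 (RPS19, plus, 1 of its listed starts), chr12:120201092-120201121 (RPLP0, minus), chr9:19380217-19380246 (RPS6, minus), chr22:39319604-39319633 (RPL3, minus) and chr6:35468391-35468420 (RPL10A, plus). RPL3 and RPL10A are among 16 of the 62 genes without a start of the full TOP form: the run of RPL3 stops after 5 bases, and that of RPL10A begins downstream of the annotated start. A match in these letters is a description of the annotated start, not of the start used in these cells.

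Libraries held 41.0 to 103.6 megareads in the cytoplasm, where all but 1 lay at 55.2 or below, and 46.1 to 55.7 in the heavy pool. Cytoplasmic libraries of letter A carried the largest share of ribosomal protein reads on each day. The epithelial markers EPCAM, KRT8, KRT18, KRT19 and CDH1 were all listed. Of 4 markers of other cell types only COL1A1 was listed, at normalised counts of 212 to 865. Reads of mitochondrially encoded genes made 3.57 to 13.6% of cytoplasmic and 0.181 to 3.93% of heavy pool libraries. A set of 6 genes stood far below the rest, among them RPS10 (mean normalised count 32.0), RPL36A (109.8), RPL26 (2522), RPL17 (2730) and RPS15A (3947), against 6883 to 334299 for the other 71. In the GENCODE annotation each of these 6 overlaps another protein-coding gene on its strand, such as the read-through genes RPS10-NUDT3, RPL36A-HNRNPH2 and RPL17-C18orf32, and reads that fit both genes may have been left uncounted. The same holds for RPL36, RPS13 and RPL22, which are not in this set. Many members also have pseudogene copies that can take reads, from 0 for RPL28 to 91 annotated for RPL23A, with 50 for RPL12 and 15 for RPS12. The values of these 6 genes, and levels set between genes, are therefore uncertain.

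The summed share of the library showed the family's course first. In the cytoplasm it was 12.4, 11.3 and 10.4% at D0 (letters A, B and C), 15.6, 13.8 and 11.4% at D1, 17.4, 11.7 and 11.6% at D2, and 22.7, 14.7 and 15.9% at D7. It was 12.6, 12.3 and 11.6% at D14 and 13.6, 11.9 and 11.7% at D16. All D7 libraries stood above all D0 libraries, with library A apart from B and C, while D14 and D16 overlapped with D0. In such bulk samples, fewer cells of a kind and less RNA per cell cannot be told apart. In the heavy pool the share was 5.87, 6.26 and 5.84% at D0, 5.23, 5.14 and 5.13% at D1, 6.56, 6.92 and 6.95% at D2, and 6.16, 6.54 and 6.05% at D7. It was 11.3, 12.2 and 11.6% at D14 and 10.9, 10.1 and 11.1% at D16. All heavy pool libraries up to D7 stayed at 6.95% or below, and all of the last 2 days lay at 10.1% or above, close to the cytoplasmic ones.

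**Figure D1:**
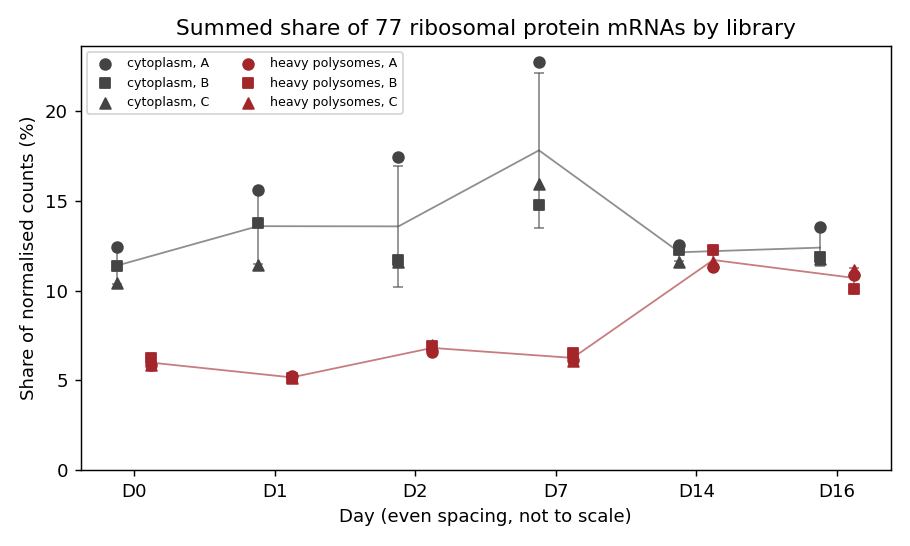
Share of normalised counts (%) in the 77 ribosomal protein mRNAs, by day, for cytoplasmic (grey) and heavy pool (red) libraries. Symbols mark the letters, lines join the means and bars are the SD of 3 libraries; the heavy pool lies between 5.13 and 6.95% up to D7 and between 10.1 and 12.2% at D14 and D16.

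In the cytoplasm, the abundance of ribosomal protein mRNAs was compared with D0 on each day. Differences are given as log2 with their standard error (SE), and a gene was called at a Benjamini-Hochberg adjusted p under 0.05 in limma over all genes. At D1, 0 of 77 were called (background 17.9% of all genes), 10 had an unadjusted p under 0.05, and the median difference was 0.51. With the letter as a block 10 were called at D1, all higher. At D2, 1 rose and 2 fell (background 24.8%) around a median of 0.36, and 5 were called with the block. At D7, 53 rose and 0 fell (background 34.0%), with a median of 1.06 against 0.01 for all genes. All 77 estimates were above 0, from 0.37 for RPLP0, the stalk base, to 2.20 for RPL36A. At D14, 0 were called (background 12.8%, and 0 with an unadjusted p under 0.05), with a median of -0.08, which is 0.07 with libraries scaled to a common sum. At D16, 2 fell (background 16.7%; both in the low-count group, RPL17 among them), with a median of -0.10, or 0.06 with a common sum. Neither was called when any 1 letter, or the D16 library of letter B, was left out. Between D7 and D14, 65 fell (background 35.6%) by a median of 1.13. Over all days, 43 changed in limma's F test (background 61.5%), or 73 with the letter block.

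The D7 count rested on few libraries. Without the cytoplasmic D7 library of letter A, 6 of the 77 were called, and without letters A, B or C in turn the median was 0.68, 1.38 and 1.11. The call fell to 30 without letter B and to 2 without letter C, with the sign of the median unchanged. Scaling to a common sum moved the D7 median of all genes by -0.32. By letter, the median differences from D0 at D7 were 1.70, 0.48 and 0.91 in A, B and C, and 76, 76 and 77 of the 77 genes were higher. The fall from D7 to D14 likewise went from 65 genes to 10 without that D7 library and to 4 without letter C.

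RPS12, a protein of the small subunit's head, had 73.1, 59.5 and 51.9 normalised kilocounts at D0 and 385, 108 and 136 kilocounts at D7. All D7 libraries were above all D0 libraries, with A far highest, and the rise was 1.55 (SE 0.44, adjusted p = 0.013). RPL11, which with RPL5 and 5S rRNA forms the particle that can bind MDM2, rose by 1.55 (SE 0.40, adjusted p = 0.0071), and RPL5 stood at 0.85 without passing the test. RPS6, the S6 kinase substrate, had 128, 115 and 93.1 kilocounts at D0 and 484, 175 and 190 kilocounts at D7. Its rise was 1.18 (SE 0.35, adjusted p = 0.016), with no overlap between the groups. RPS19, mutated in Diamond-Blackfan anaemia, was the single gene to rise by D2. It had 54.3, 47.4 and 42.1 kilocounts at D0 and 179, 83.5 and 67.2 kilocounts at D2, a difference of 1.07 (SE 0.35, adjusted p = 0.035).

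RPL3, near the peptidyl transferase centre, and RPL10A, of the mobile L1 stalk, went the other way at D2. RPL3 had 150, 139 and 125 kilocounts at D0 and 104, 75.5 and 66.9 kilocounts at D2. All D2 libraries were lower than all D0 libraries, and the fall was 0.77 (SE 0.21, adjusted p = 0.011). RPL10A went from 70.3, 63.0 and 56.0 kilocounts to 54.3, 29.6 and 26.3 kilocounts, a fall of 0.85 (SE 0.31, adjusted p = 0.0496). These D2 calls were absent when letter B or letter C was left out, which gave 0 called genes each. Both genes stood at D7 at 0.40 and 0.49 without passing the test.

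The heavy pool was then compared with its own D0 libraries, which asks how each mRNA's share of the mRNAs on more than 3 ribosomes changed. At D1, 48 of 77 fell and 0 rose (background 47.0% of all genes called), with a median of -0.32 against -0.06 for all genes. With libraries scaled to a common sum 27 fell and 3 rose at D1. At D2 the family split: 18 rose and 20 fell (background 64.9%), around a median of 0.06. With the common sum 52 rose and 9 fell at D2. That scaling raised the median of all genes by 0.38. At D7, 8 rose and 27 fell (background 63.5%), with a median of -0.13 against -0.11 for all genes, and the common sum gave 37 risen, 9 fallen and a median of 0.16. The share called was above the background at D1 and below it at D2 and D7. At D7 the common sum moved the median of all genes by 0.29, as it did that of the family, which lay level with all genes under both scalings. It lay below other protein-coding genes of like coding length at D7. Medians were -0.17 for members and 0.55 for others under 100 codons, and 0.01 and 0.39 for 100 to under 200. They were -0.29 and 0.12 for 200 to under 300, and -0.48 and -0.30 for 300 or more.

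The split at D2 went with coding length. Spearman's rho between codons (longest annotated form, from GENCODE) and the D2 difference was -0.67 across the 77 genes, and -0.14 across 12319 other protein-coding genes. Genes are not independent replicates, and no p is given. The median at D2 was 0.26 for the 9 members under 100 codons, 0.13 for the 45 of 100 to under 200, -0.39 for the 20 of 200 to under 300 and -0.65 for the 3 of 300 or more. For other protein-coding genes these medians were 0.32, 0.20, 0.05 and -0.12.

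RPL3, with 403 codons, had 137, 142 and 140 normalised kilocounts in the heavy pool at D0, 61.5, 68.7 and 57.8 kilocounts at D1 and 43.1, 46.2 and 52.0 kilocounts at D2. The groups did not overlap, and the fall was 1.16 at D1 (SE 0.09, adjusted p = 5.1e-10) and 1.58 at D2 (SE 0.09, adjusted p = 6.1e-13). At D14 it was back at 144, 146 and 140 kilocounts. RPL10A had 36.6, 41.3 and 42.5 kilocounts at D0, 12.2, 14.9 and 13.8 kilocounts at D1 and 15.5, 16.7 and 17.2 kilocounts at D2. Its fall of 1.56 at D1 (SE 0.09, adjusted p = 3.2e-12) was the largest of the family on that day, before RPL3 and RPS9 (0.75), a protein of the mRNA entry channel. RPL4, of the exit tunnel and the longest at 427 codons, fell by 0.58 at D1 and 0.65 at D2.

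The 9 members under 100 codons ranged from -0.13 to 0.83 at D2. RPL39, an exit tunnel protein of 51 codons, had 7.08, 6.93 and 6.16 kilocounts in the heavy pool at D0 and 12.8, 11.6 and 11.4 kilocounts at D2, a rise of 0.83 (SE 0.13, adjusted p = 8.9e-06) with no overlap. RPS19, with 145 codons, had 21.1, 23.1 and 21.8 kilocounts at D0, 36.7, 38.0 and 39.8 kilocounts at D2 and 20.4, 21.3 and 20.6 kilocounts at D7. It thus rose at D2 by 0.80 (SE 0.09, adjusted p = 3.1e-08) and was at D7 back at the level of D0. RPL12, at the base of the stalk and with 165 codons, fell by 0.63, 1.10 and 0.61 at D1, D2 and D7. At D2 and D7 this was the largest fall among the 45 members of 100 to under 200 codons. At D1 RPS9, of the same length class, fell more. At D7 RPL36A (1.38) and RPL17 (1.03), both of the low-count group, were among the largest rises, and the largest falls were those of RPSA (0.63), RPL12 (0.61) and RPL10 (0.59). RPSA is the ribosomal protein also known as the laminin receptor, and RPL10 joins the subunit late in its assembly.

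**Figure D2:**
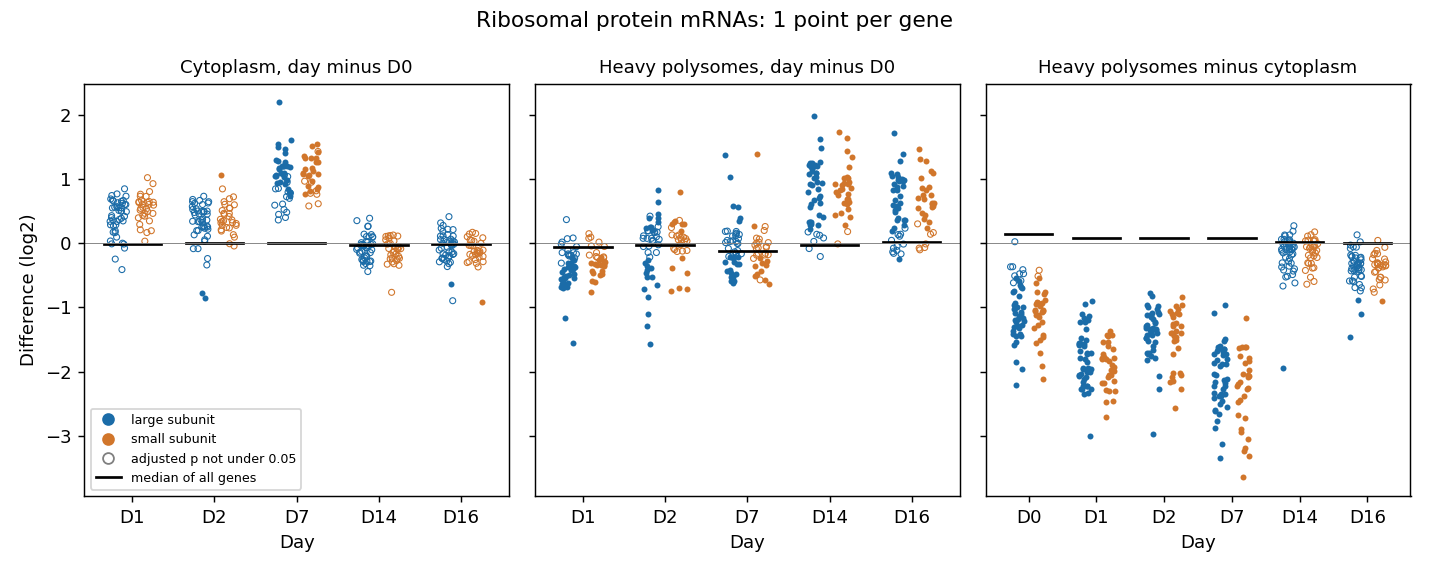
Log2 difference of each of the 77 genes (1 point each) from D0 in the cytoplasm (left) and heavy pool (middle), and between heavy pool and cytoplasm (right), by day. Filled points had an adjusted p under 0.05, colours mark the subunit and black lines the median of all genes; the family's heavy pool median goes from -0.32 at D1 to 0.84 at D14.

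At D14, 68 of 77 genes had risen in the heavy pool and 0 had fallen (background 72.0%), with a median of 0.84 against -0.02 for all genes. Short mRNAs outside the family were higher too. Under 100 codons the D14 medians were 1.08 for members and 1.16 for other protein-coding genes. They were 0.93 and 0.595 for 100 to under 200 codons, and 0.33 and 0.21 for 200 to under 300. For 300 codons or more they were 0.03 and -0.35. At D16, 57 members had risen and 1, RPL4, had fallen (background 72.8%), with a median of 0.59. RPL4 stood at -0.24 at D16 and at 0.18 with a common sum. From D7 to D14, 73 rose and 1 fell (background 58.4%), by a median of 0.86, and 76 changed on any day in limma's F test (background 95.1%). The letters differed little at D14, with medians of 0.82, 0.81 and 0.857, and more at D16, with 0.705, 0.373 and 0.715. Among all genes about as many rose (5457) as fell (5956) at D14.

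RPL12 rose most. Its heavy pool libraries had 33.9, 38.4 and 36.8 normalised kilocounts at D0, 22.5, 26.0 and 22.2 at D1, 14.7, 16.9 and 19.6 at D2, 23.4, 24.6 and 23.3 at D7, 139, 153 and 141 at D14, and 121, 116 and 124 at D16. The D14 and D16 libraries lay far above all earlier ones, and the rise at D14 was 1.99 (SE 0.10, adjusted p = 1.5e-13). In the cytoplasm RPL12 had 186, 171 and 150 kilocounts at D0 and 147, 149 and 136 kilocounts at D14, with the D14 libraries just below. RPS12 had 13.2, 14.4 and 14.3 kilocounts in the heavy pool at D0, 15.5, 14.1 and 13 at D7 and 43.2, 49.7 and 46.5 at D14, a rise of 1.73 from D0 (SE 0.10, adjusted p = 1.3e-12). RPS20, a protein of the small subunit's head, rose by 1.64, and the other stalk proteins RPLP0, RPLP1 and RPLP2 by 0.92, 1.10 and 1.26.

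Members without a call at D14 were RPL41 (-0.20), RPL4 (-0.08), RPS10 (-0.01), RPL3 (0.03), RPL6 (0.08), RPL19 (0.13), RPL7A (0.14), RPL8 (0.18) and RPS4X (0.18). Most of these are long, and RPL41 is the shortest. RPL41 encodes a peptide of 25 residues and had 25.7, 26.2 and 23.3 heavy pool kilocounts at D0, 18.4, 25.1 and 22.3 kilocounts at D14 and 33.8, 23.2 and 32.9 kilocounts at D16. The groups overlapped, with 2 of 3 D14 libraries below and 2 of 3 D16 libraries above all those of D0. The other 8 members under 100 codons all rose at D14, and RPS28, with 69 codons, had the largest rise among them (1.44, SE 0.10, adjusted p = 5.7e-11). Spearman's rho between codons and the D14 difference was -0.69 across the 77 members, and -0.76 without RPL41, left out after its value was seen. It was -0.44 across other protein-coding genes.

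**Figure D3:**
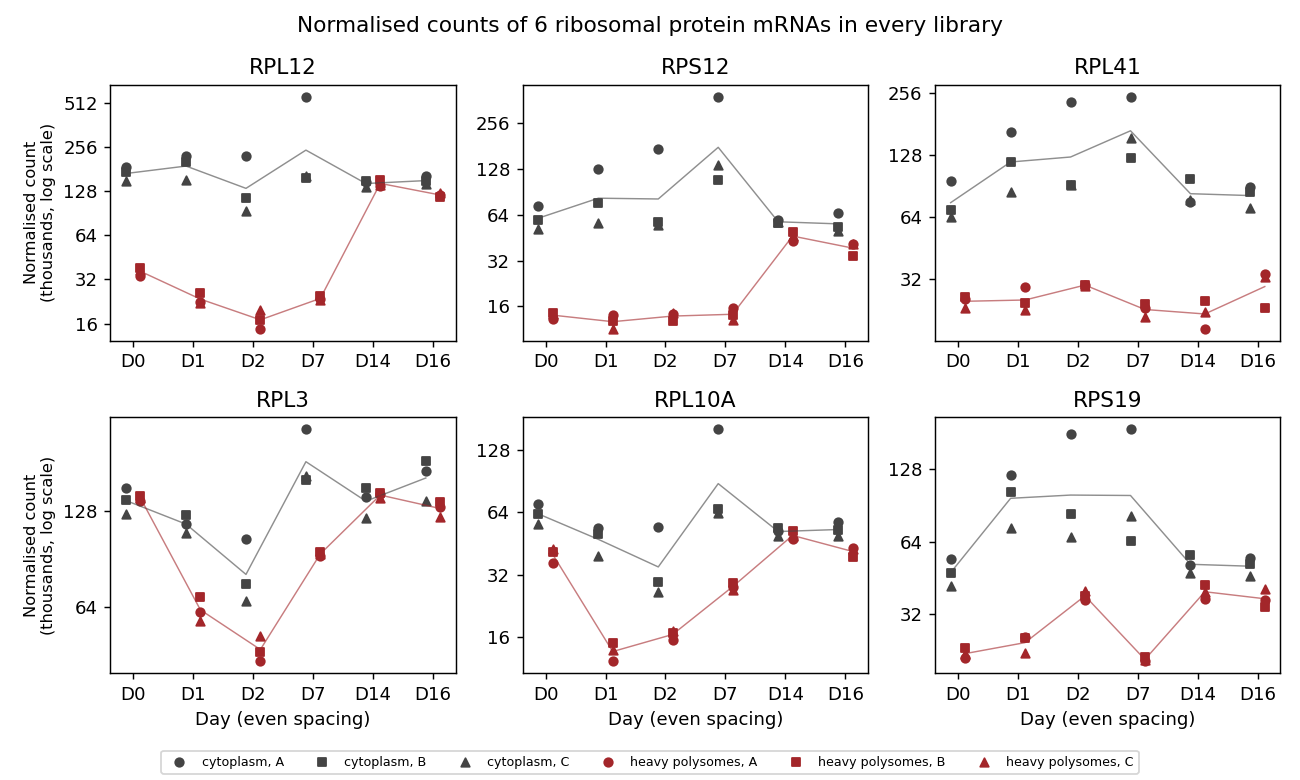
Normalised kilocounts (log scale) of 6 ribosomal protein mRNAs in every library, by day, with a line through the geometric mean of 3 libraries. RPL12 and RPS12 jump in the heavy pool at D14, RPL41 shows no such jump, and RPL3 and RPL10A dip at D1 and D2. RPS19 is high in the heavy pool at D2 and again from D14, and in the cytoplasm from D1 to D7.

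The heavy pool was also set against the cytoplasm of the same day, in a model over all 36 libraries. Since each library is scaled to its own total, this difference compares a gene with the others in the pool, and is no measure of how many copies carry ribosomes. At D0, 65 of 77 genes were lower in the heavy pool and 0 higher (background 45.8%), with a median of -1.05 against 0.14 for all genes. All 77 were lower at D1 (background 58.3%), D2 (background 46.2%) and D7 (background 56.6%), with medians of -1.86, -1.36 and -2.13. A common sum moved the medians of all genes by 0.43, 0.48 and 0.60 on these days. At D14, 1 gene was lower (background 1.23%) and the median was -0.10, or 0.06 with a common sum. At D16, 4 were lower (background 0.85%) and the median was -0.34. With the letter block 2 were called at D14. The near absence of calls at D14 and D16 was thus shared by all listed genes. Mitochondrially encoded genes, which cytosolic ribosomes do not translate, made 0.181 to 1.31% of the heavy pool libraries on these days and 6.07 to 9.80% of the cytoplasmic ones. The part of the heavy pool's make-up in the family's values was not tested.

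RPL41 was the gene called at D14. Its cytoplasmic libraries had 75.7, 98.0 and 78.0 kilocounts, all above the 18.4, 25.1 and 22.3 kilocounts of the heavy pool, and the difference was -1.94 (SE 0.27, adjusted p = 1.2e-05). It was -1.59 at D0 and -2.88 at D7. At D16, RPL41 (-1.47, SE 0.27, adjusted p = 0.0014) was joined by RPLP1 (-1.10), RPSA (-0.90) and RPLP0 (-0.89), while the count ranged from 0 without letter B or C to 8 without letter A. Without the cytoplasmic D7 library of letter A, 4 genes were called at D14 and 8 at D16.

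At D0 the ends of the family were RPL12 (-2.21, SE 0.29, adjusted p = 7.9e-07) and RPS12 (-2.12, SE 0.33, adjusted p = 1.1e-05) at the low end and RPL3 at the other. RPL3 had 150, 139 and 125 kilocounts in the cytoplasm and 137, 142 and 140 kilocounts in the heavy pool, overlapping values with a difference of 0.03 (SE 0.15). The 12 genes not called at D0 were mostly long, such as RPL4 (-0.41), RPL7A (-0.37) and RPL15 (-0.36). The order of genes was alike on the first 4 days: across the 77 genes, Pearson's r of this difference between D0 and D7, which share no library, was 0.83. Between D7 and D14 it was 0.34, and between D14 and D16 it was 0.83. The points of each day share libraries and length, and no p is given.

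Coding length went with this difference too. Spearman's rho was 0.73 at D0, 0.57 at D1, 0.39 at D2 and 0.61 at D7, and 0.09 and -0.07 at D14 and D16. Leaving out the 6 low-count genes gave 0.73 at D0 and 0.63 at D7. Among 12322 other protein-coding genes rho was 0.49 at D0, 0.45 at D7 and -0.42 at D14, so the direction among them turned while that within the family faded. Within each length class the family lay below other genes at D0 and D7. For 100 to under 200 codons, the medians were -1.11 for 45 members and -0.53 for 1275 other genes at D0, -2.18 and -0.66 at D7, and -0.09 and 0.18 at D14.

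**Figure D4:**
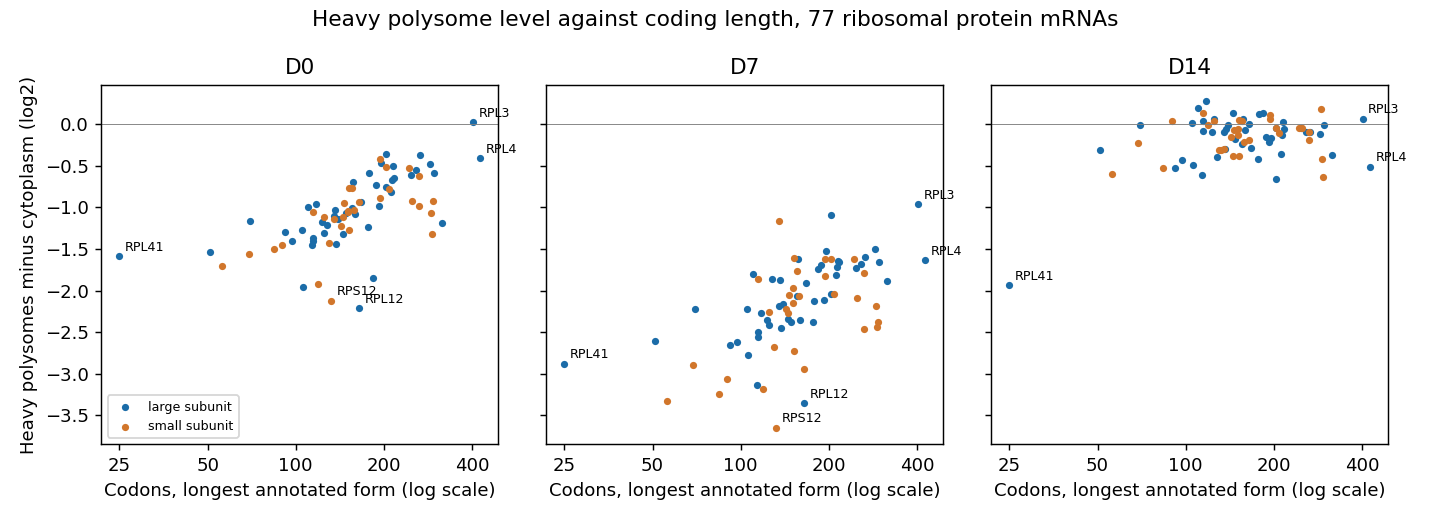
Log2 difference between heavy pool and cytoplasm (vertical) against coding length in codons (log scale) for the 77 genes at D0, D7 and D14, coloured by subunit. The difference goes with length at D0 and D7 (rho 0.73 and 0.61), with RPL12 and RPS12 lowest at D0, and at D14 all but RPL41 (-1.94) lie between -0.665 and 0.275.

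The change of this difference from D0, here called polysome association, asks whether the heavy pool moved apart from the cytoplasm. It fell for 9 genes at D1 (background 4.16%; median -0.80), for 2 at D2 (background 2.06%; median -0.38, or 0.11 with a common sum) and for 24 at D7 (background 3.95%; median -1.12). None rose on these days. It rose for 27 at D14 (background 28.3%; median 0.83) and for 13 at D16 (background 29.5%; median 0.65), and 0 fell. Medians over all genes lay between -0.10 and -0.09 in these 5 comparisons. A common sum moved that of D7 by 0.61, to 0.52, and such scaling moves all genes of a library nearly alike. Short mRNAs outside the family rose as well. Under 100 codons the medians were 1.11 for members and 1.23 for other protein-coding genes at D14, and 0.90 and 1.25 at D16. For 100 to under 200 codons they were 0.94 and 0.70 at D14, and 0.77 and 0.67 at D16. At D7 the same class had -1.08 and -0.165. With the letter block 18, 39 and 22 genes were called at D1, D7 and D16. With a common sum 3 were called at D1, all lower, and 70 at D14 and 57 at D16, all higher. From D7 to D14 it rose for 76 of 77 genes (background 41.0%) by a median of 1.98, and 77 changed on any day in limma's F test (background 54.1%).

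The D7 fall was seen in each letter, with medians of -1.77, -0.59 and -0.96 in A, B and C, and 76, 75 and 75 of the 77 genes lower. Its count went from 24 to 6 without the cytoplasmic D7 library of letter A, to 1 without letter B and to 0 without letter C. The counts at D14 ran from 2 to 44 over the letters left out, those at D16 from 2 to 33, and those at D1 from 0 to 16. The D2 count was 0 without any 1 letter. Leaving out single cytoplasmic libraries gave 30 at D1, 4 at D2, 47 at D14 and 29 at D16 without D7 of letter A, 15 at D1 and 16 at D14 without D14 of letter B, and 7 at D16 without D16 of letter B. With the 2 pools of a collection as a block, 0, 0, 4, 16 and 6 genes were called at D1, D2, D7, D14 and D16. The count for D7 to D14 lay between 74 and 77 in all alternatives run.

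By gene, the D7 fall was largest among called genes for RPS27 (1.74, SE 0.41, adjusted p = 0.014), RPLP1 (1.69, SE 0.38, adjusted p = 0.011) and RPS29 (1.62, SE 0.42, adjusted p = 0.026), which have 84, 114 and 56 codons. At D1 it was largest for RPL8 (1.31), RPS9 (1.3) and RPL7A (1.19), which have 257, 194 and 266. The 2 genes at D2 were RPSA (fall of 1.10, SE 0.24, adjusted p = 0.01) and RPL3 (0.81, SE 0.21, adjusted p = 0.036). At D14, RPL12 rose most (2.22, SE 0.41, adjusted p = 0.00048), followed by RPL17 (1.98) and RPS20 (1.91). RPL3, RPL4 and RPL41 stood at 0.04, -0.10 and -0.35 at D14, without a call.

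The medians of large and small subunit genes, large first, were 0.46 and 0.56 in the cytoplasm at D1 and -0.03 and -0.12 at D16. They were 1.04 and 1.08 in the cytoplasm at D7, 0.82 and 0.84 in the heavy pool at D14, and -2.09 and -2.19 between heavy pool and cytoplasm at D7. The difference between subunits was not tested. The SD over the whole family's genes was 0.318 in the cytoplasm at D7, 0.454 in the heavy pool at D14 and 0.545 between pools at D7. Genes were closest together in the cytoplasm at D14 (SD 0.19) and spread most between heavy pool and cytoplasm at D7. SDs over all genes were larger in each, 0.70 in the cytoplasm at D14 and 1.09 between pools at D7. Without the 6 low-count genes the family's SDs were 0.168 and 0.536.

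Per kilobase of annotated exon, the cytoplasmic level at D0 ran from 0.097 times the family's median for RPS29 to 7.63 times for RPS2, once the 6 low-count genes and RPL22 (0.065) were set aside. Next to RPS2 came RPL8 (5.17), and RPS12 (3.60) was also near the top. Exon lengths count all annotated forms, and RPS29 has 9845 bases of them.

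By role, the 4 stalk genes RPLP0, RPLP1, RPLP2 and RPL12 ranged from -1.10 to 0.23 in the heavy pool at D2 and from 0.92 to 1.99 at D14, where all 4 rose. Members mutated in Diamond-Blackfan anaemia that rose in the cytoplasm at D7 included RPS19, RPS24, RPS26 and RPL35A, by 1.06 to 1.32. On that day 53 of the 77 members and 34.0% of all genes were called. Other members mutated in this anaemia, such as RPL5 (0.85), RPS7 (0.77) and RPL15 (0.61), did not pass the test there. RPL23, RPL26 and RPS7, which can bind MDM2 as RPL5 and RPL11 do, rose in the heavy pool at D14 by 0.62 to 1.02. Most of the 77 members rose there, and 72.0% of all genes were called. CDKN1A, a target of p53, rose in the heavy pool by 4.70 at D2 and 1.41 at D14.

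Other genes of ribosome supply were read from lists. Of 19 other TOP mRNAs, mainly translation factors, 4 rose in the cytoplasm at D7 (EEF1B2 by 1.19, TPT1 by 1.43, EIF3H by 0.93 and EIF4A2 by 0.87) and 0 fell, where 34.0% of all genes were called. In the heavy pool 1 rose and 11 fell at D1, 2 rose and 14 fell at D2, and 8 rose and 6 fell at D14, with a median of -0.06 against 0.84 for the ribosomal proteins. The shares of all genes called on these days were 47.0, 64.9 and 72.0%, so the D14 count is near the background. The 2 medians at D14 were not matched for coding length. For 300 codons or more, the D14 medians were 0.03 for 3 ribosomal proteins and -0.35 for protein-coding genes outside the family. The elongation factor EEF1A1 stood at -1.03 at D2, where it fell, and at 0.21 at D14 without a call. Polysome association of the other TOP mRNAs rose for 12 and fell for 0 of 19 from D7 to D14 (background 41.0%), with a median of 1.11. In the same comparison, 6 of 7 listed ribosomal genes outside the naming rule rose and 1 fell. FAU, which encodes a ribosomal protein fused to a ubiquitin-like protein, rose by 2.00. Its heavy pool libraries overlapped between D7 (12347, 10621 and 10756 normalised counts) and D14 (12282, 13411 and 12285). Its cytoplasmic libraries had 70767, 20364 and 25921 at D7 and 8904, 11212 and 8345 at D14.

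The 77 mitochondrial ribosomal protein genes, whose products work in mitochondria, rose in 22 cases and fell in 1 in the cytoplasm at D7 (median 0.41). That share called was below the background of 34.0%. In the heavy pool at D14, 20 rose and 40 fell (median -0.30), near the background of 72.0% called. The 22 ribosome biogenesis genes fell in 21 cases in the heavy pool at D2 and rose in 1 (SBDS, by 0.93), and fell in 20 at D14 with 0 rises (medians -1.17 and -0.94; backgrounds 64.9% and 72.0%). NCL, NOP56 and NAT10 fell by 2.47, 2.05 and 2.58 at D2. Of 18 genes of mTORC1 signalling and TOP control, 6 rose and 10 fell in the heavy pool at D14, again beside a background of 72.0%. MTOR fell by 2.09, LARP1 by 1.46 and TSC2 by 1.67, while EIF4EBP1 rose by 1.05 and RHEB by 1.32. Coding length was not taken into account for any of these lists. Heavy pool medians of other protein-coding genes at D14 were 1.16 under 100 codons and -0.35 for 300 or more. The cytoplasm did not show the rises of EIF4EBP1 and RHEB. There, all D14 libraries of EIF4EBP1 and RHEB lay below all D0 libraries, and MTOR, LARP1 and TSC2 overlapped between these days. By letter, cytoplasmic MTOR was lower at D14 than at D0 in A, B and C, and LARP1 and TSC2 in A and C but not in B. mRNA levels of these genes do not measure the activity of the pathway.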

How the data were processed

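Libraries were poly(A)-selected and strand-marked with dUTP, per the labels' protocols. The submitters' processing notes name STAR 2.7.9a, featureCounts (Subread 2.0.1), DESeq2 1.30.1, cutadapt 3.2 and FastQC 0.11.9, with the build GRCh38. The strand setting and annotation release were not given in the sources used here, so reads of overlapping antisense genes may be mixed. The deposited values are a signal, read counts per gene divided by 1 size factor per library. Of 54 columns, 18 belong to no sample and were not used here. The table listed 15891 genes, each with a value of at least 1.004 in the libraries used.

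Depth was taken from the value of 1 read in each library, which gave whole reads for 100% of values within 0.01. The tests stayed on log2(value + 1). Genes that reached 10 in 3 or more libraries were fitted with limma 3.58.1 (lmFit, eBayes with trend, R 4.3.3) on group means, 6 groups per fraction or all 12 for comparisons between pools, which share 1 spread. Tests were two-sided with Benjamini-Hochberg adjustment over all genes and a threshold of 0.05. All comparisons with D0 share its libraries. GENCODE 29 gave 15799 genes coordinates, exon and coding lengths. Steps were tested on simulated data.

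The members, lists and rules were chosen with earlier results of these data known. Genes named are, per comparison, up to 3 called members with the largest rise and 3 with the largest fall, of the same sign in all letters, both ends of the D0 difference between pools, and a fixed set by role. Some genes that meet this rule are not reported here. Other genes in the text, such as those not called at D14, were chosen after their values were seen. Letters pair samples because the labels give them as batches. As a check, deviations from the group means were correlated between same-letter libraries. The r exceeded 0.1 in 27 of 45 cytoplasmic pairs, 20 of 45 heavy pool pairs and 5 of 18 pairs of a day's pools, with means of 0.19, 0.068 and -0.0009. No source says that letters are separate cultures, so p-values measure the spread between these samples. Alternatives were another pseudocount, no filter, a common sum, letter blocks and libraries left out.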

Additional observations from a re-analysis of the deposited data

Results flagged for a closer look

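The day effect differed between the heavy pool and the cytoplasm for 9 of the 77 genes at D1, 2 at D2 and 24 at D7. This was by the test of the difference itself in limma over all 36 libraries. For all of these genes, heavy pool minus cytoplasm was lower than at D0. The effect differed for 27 at D14 and 13 at D16, all with heavy pool minus cytoplasm higher than at D0. The sign does not say which pool moved. Groups of 3 libraries are too small for a check of single outlying values.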

How the results depend on the processing

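Another pseudocount or no filter moved no count of called members by over 1.5 times. Over all alternatives, 196 counts stayed within that range and 66 did not. Of values for single named genes, 6887 kept their call status, 346 lost the call and 171 gained it. A further 12 changed sign with a call in either setting. Values that changed sign without a call in either setting were counted with the 6887.

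A common sum per library moved the median of all genes by -0.44 to 0.61 (log2). It gave 5 called members in the cytoplasm at D1 and 1 at D14, 30 and 61 in the heavy pool at D1 and D2, and 4 and 8 between pools at D14 and D16. For the association change it gave 3 at D1, 70 at D14 and 57 at D16. Among named values called under either scaling, sign changed with it in the heavy pool for RPL10 (0.069), RPS12 (0.361) and RPS3 (0.271) at D2. At D7 it changed for RPL5 (0.0742), RPLP2 (0.287), RPS19 (0.209) and RPS23 (0.264). At D14 it changed for RPL4 (0.239), and at D16 for RPL10 (0.35), RPL3 (0.316), RPL4 (0.181) and RPSA (0.416).

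With the letter as a replicate block, the cytoplasm had 10 calls at D1, 5 at D2 and 73 on any day, the pools differed in 2 at D14, and the association change had 18 at D1, 39 at D7 and 22 at D16. The block moved no other count by over 1.5 times. With each collection's pair of pools as a block, chosen after seeing the data, 2 differed between pools at D16 and the association change had 0, 0, 4, 16 and 6 from D1 to D16.

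Leaving out a letter or a single library gave, in the cytoplasm, 0 to 5 calls at D1, 0 to 4 at D2, 2 to 54 at D7, 0 to 2 at D16, 4 to 65 from D7 to D14 and 3 to 54 on any day. It gave 1 to 4 between pools at D14 and 0 to 8 at D16. The association change had 0 to 30 at D1, 0 to 4 at D2, 0 to 26 at D7, 2 to 47 at D14 and 2 to 33 at D16. The cytoplasmic D7 library of letter A was the most frequent single library behind these moves. The cause was not tested. The planned edgeR test was not run: all tests stayed on the deposited normalised values. Groups of 3 libraries limit the precision, and the part of depth in it was not tested.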
